A study of Mus musculus with 20 samples.

Results

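The Eph receptors and ephrins are a family of cell surface receptors and their membrane-bound ligands, and 10 of its genes were followed here along the axis of the mouse intestinal crypt: the receptors Ephb2, Ephb3, Ephb4, Ephb6, Epha1 and Epha2, and the ligands Efnb1, Efnb2, Efna1 and Efna4. They are given by gene symbol, and all 10 were found among the 54838 gene rows of the files. RNA was sequenced from 20 libraries of C57BL/6 mouse intestine. In the tissue set of 12 libraries, crypt cells were sorted by flow cytometry on Lgr5, whose EGFP reporter is high in crypt base stem cells. WT cells and cells labelled Mettl3-/- at day 4 had 2 libraries in each of the Lgr5-high and Lgr5-low gates, day 3 had 1 library per gate, and day 6 had 2 libraries whose labels name no gate, although the column header of day 6 replicate 1 reads low. The mice labelled Mettl3-/- carried floxed Mettl3, the gene of an enzyme that writes m6A marks on RNA, with Lgr5-EGFP-IRES-CreERT2 and Villin-CreERT2, and received tamoxifen at 20 mg/ml for 4 days. Lgr5 drives the first Cre in crypt base stem cells and Villin the second throughout the intestinal epithelium. WT tissue is labelled untreated, while the protocol also names floxed mice without Cre that received tamoxifen, so that effects of Cre, of tamoxifen and of the deletion cannot be told apart. In the organoid set of 8 libraries, 2 per group, WT organoids had ethanol for 2 days, and 3 groups labelled Mettl3-/- had 4-OHT for 2 days: the knockout with no added factor named, the knockout with AKF (retroviral Ascl2, Klf9 and Fosb) and the knockout with AKFP (the same factors with Purb). The sample titles of the WT organoids and of the knockout with no added factor carry the words m3-flag, which those of AKF and AKFP lack. The labels do not say what they mean, so a construct in these 4 libraries cannot be told apart from the group in any organoid comparison that uses them. Organoids with the retroviruses were selected in puromycin and the labels name no empty vector, so that selection and the factors cannot be told apart. Every group has at most 2 libraries, and the labels do not say whether they came from separate animals or cultures, so each p-value measures only the spread between these libraries.

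Eph receptors are tyrosine kinases that signal on contact with ephrins on a neighbouring cell, and the ephrin can signal back into its own cell. A-type ephrins are held in the membrane by a lipid anchor and bind mainly EphA receptors, whereas B-type ephrins span the membrane and bind mainly EphB receptors. In the small intestine, EphB2 and EphB3 are known as targets of Wnt, beta-catenin and TCF that are highest at the crypt base, and ephrin-B1 and ephrin-B2 as ligands of the differentiating cells above. Their opposed gradients are known to keep cells sorted along the crypt and to place Paneth cells at its base.

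Values are FPKM, fragments per length of transcript and per sequencing depth, so that levels can be compared between genes per length. The deposited FPKM of a library summed to between 364538 and 763177, and the highest sum was that of day 6 replicate 1. Depth, inferred only roughly from the smallest FPKM steps of genes with 1 exon, lay between 14.7 and 25.5 M fragments per library. Epcam, Cdh1, Krt8 and Vil1, markers of epithelium, summed to at least 1832 FPKM in every library. The 8 endothelial markers together summed to at most 4.76 FPKM in tissue and 5.19 in organoids. Among them Cdh5, Kdr and Emcn did not exceed 0.0159 FPKM in any library, while Esam reached 3.61 and Egfl7 2.21. The 8 stromal markers together did not exceed 4.25 FPKM. Immune markers summed to between 2.29 and 17.4 FPKM in tissue and at most 1.16 in organoids. Lgr5 itself stood at 10.1 and 10.4 FPKM in WT Lgr5-high, at 0.715 and 0.974 in WT Lgr5-low, at 2.31 and 6.00 in day 4 Lgr5-high and at 0.340 and 1.27 at day 6. Alpi, an enterocyte phosphatase, stood at 16.8 and 18.5 FPKM in WT Lgr5-high against 151 and 212 in WT Lgr5-low. Summed markers of Paneth cells ranged from 27775 to 38274 FPKM in WT Lgr5-high, from 31034 to 37864.5 in WT Lgr5-low and from 43067 to 107571 at day 6. Pla2g2a, a secreted phospholipase of Paneth cells known to be disrupted in the C57BL/6 strain, set libraries apart. It stood between 1482 and 2477 FPKM in WT and at day 3, at 4723 and 3346 in day 4 replicate 1 of the high and low gates and at 87.9 and 107 in replicate 2, and at 371 and 109 at day 6. Its level was 610 and 592 FPKM in the AKFP organoids and between 8.17 and 15.7 in the other 6 organoid libraries. The part of such a difference between libraries in the results below was not tested. The level of Mettl3 over the whole gene was not called in any knockout comparison with WT at day 4, at day 6 or in knockout organoids (limma adjusted p from 0.215 to 0.777), so the word knockout below follows the labels.

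On build GRCm38 (mm10), in GENCODE M21, the receptors are Ephb2 (ENSMUSG00000028664) at chr4:136647539-136835988, Ephb3 (ENSMUSG00000005958) at chr16:21204755-21223305, Ephb4 (ENSMUSG00000029710) at chr5:137350109-137378669, Ephb6 (ENSMUSG00000029869) at chr6:41605482-41620509, Epha1 (ENSMUSG00000029859) at chr6:42358487-42373268 and Epha2 (ENSMUSG00000006445) at chr4:141301240-141329384. The ligands are Efnb1 (ENSMUSG00000031217) at chrX:99136130-99148991, Efnb2 (ENSMUSG00000001300) at chr8:8617434-8661242, Efna1 (ENSMUSG00000027954) at chr3:89271733-89281142 and Efna4 (ENSMUSG00000028040) at chr3:89333390-89338028. The counting is not stated to use strand, so values of members that overlap another gene are uncertain: Ephb4 overlaps Zan, Epha1 overlaps Zyx and 2010310C07Rik, and Efna4 overlaps 4731419I09Rik, each on the opposite strand, and Efnb2 overlaps E230020D15Rik, Gm45073 and Gm45074 on its own strand.

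Promoters of the 4 members on which most results below turn are shown first. They run up to 250 bases before the RefSeq start (build GRCm38.p6), 5′ to 3′ on the strand of the gene, and Ephb3 was cut by 40 bases to end before its GENCODE start. Capitals mark matches, on either strand, to CTTTGA (TCF/LEF), CAGCTG (the E-box type bound by Ascl2), TGANTCA (AP-1, the site of Fosb dimers) and CACCC (Klf-type). The E-box and AP-1 motifs read the same on both strands, and the letters of overlapping matches are all in capitals.
Ephb3 promoter, chr16:21204545-21204754, plus strand, 210 bases: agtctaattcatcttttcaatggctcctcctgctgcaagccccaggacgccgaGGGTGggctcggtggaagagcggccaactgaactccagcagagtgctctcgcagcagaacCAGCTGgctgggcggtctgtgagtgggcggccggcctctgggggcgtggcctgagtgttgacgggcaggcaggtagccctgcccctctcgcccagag
Ephb4 promoter, chr5:137349859-137350108, plus strand, 250 bases: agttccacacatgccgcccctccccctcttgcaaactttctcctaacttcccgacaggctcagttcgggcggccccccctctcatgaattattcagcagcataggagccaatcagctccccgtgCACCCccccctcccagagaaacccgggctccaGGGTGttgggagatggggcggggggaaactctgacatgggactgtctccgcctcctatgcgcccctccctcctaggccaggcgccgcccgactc
Epha2 promoter, chr4:141300971-141301220, plus strand, 250 bases: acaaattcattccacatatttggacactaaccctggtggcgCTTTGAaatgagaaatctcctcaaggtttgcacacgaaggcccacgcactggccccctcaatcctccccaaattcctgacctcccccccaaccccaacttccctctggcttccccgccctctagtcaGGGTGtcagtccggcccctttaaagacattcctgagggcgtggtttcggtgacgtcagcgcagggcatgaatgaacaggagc
Efna4 promoter, chr3:89338029-89338278, minus strand, 250 bases: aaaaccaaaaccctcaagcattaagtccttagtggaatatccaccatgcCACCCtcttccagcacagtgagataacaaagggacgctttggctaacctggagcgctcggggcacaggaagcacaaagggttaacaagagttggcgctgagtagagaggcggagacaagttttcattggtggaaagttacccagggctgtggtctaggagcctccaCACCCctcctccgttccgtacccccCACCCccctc
The Ephb3 window held the only CAGCTG among the 11 windows of the 10 members, and the Epha2 window the only match to CTTTGA in that set. CAGCTG was present in 13.0% and CTTTGA in 13.8% of all 32851 promoters of the table in the same 250 bases. TGANTCA was in none of the members' windows and in 6.75% of all promoters. CACCC was in 10 of the 11 windows and in 52.0% of all promoters. It had 3 matches each in Efna4, Ephb2, Efnb1 and 1 window of Efna1, and 2 in Ephb4. G and C made up between 54.4% and 76.8% of the bases in the members' windows, against a median of 52.4% over all promoters. The part of this in the CACCC count was not tested. These matches describe letters in a window and were not tested against the expression values. GGACT, the commonest form of the m6A consensus, occurred between 1.15 (Ephb4) and 2.76 (Efnb1) times per kb of the longest coding transcript of each member, against a median of 1.01 over 21877 protein coding genes.

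WT Lgr5-high and Lgr5-low cells were compared to ask how the family is distributed between the gates. Summed markers of Paneth cells, which sit at the crypt base, overlapped between these gates. The comparison is thus not a plain contrast of the crypt base with the cells above. Ephb3 and Efna4 were higher in Lgr5-high cells, and none of the other 7 tested members passed. Of these, the receptors Ephb2 and Ephb4 had a positive fitted difference and the receptors Epha1 and Epha2 a negative one, as did both B-type ligands. Ephb3, a receptor whose loss is known to displace Paneth cells, stood at 13.0 and 13.2 FPKM in the Lgr5-high libraries and at 5.20 and 3.58 in the Lgr5-low libraries. The groups were thus well apart, by 2.98-fold in their means. On the log2(FPKM + 1) scale, which understates the change of low genes, the difference was 1.40 ± 0.25 (SE, n = 2 per group), with a limma adjusted p of 0.0396. Efna4, a ligand of EphA receptors, stood at 25.1 and 31.6 FPKM in Lgr5-high against 12.4 and 11.3 in Lgr5-low, a 2.40-fold difference of means (1.19 ± 0.23 on the log2 scale, limma adjusted p = 0.0491). Its groups did not overlap either.

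In the other direction stood Efnb2, a B-type ligand that EphB4 also binds, with 3.03 and 2.46 FPKM in Lgr5-high cells and 10.2 and 10.7 in Lgr5-low cells. This was the largest gap between the gates among the members, 3.82-fold in the means, but it did not pass (difference of -1.62, limma adjusted p = 0.110). It passed with median-of-ratios scaling (-1.71, limma adjusted p = 0.0462) and with only the WT gates fitted (0.0123). It also passed with a replicate block, a shared shift fitted for all libraries numbered 2. Epha1, a receptor for ephrin-A1, stood at 6.71 and 7.65 FPKM against 11.3 and 14.7 in Lgr5-low (difference of -0.77, limma adjusted p = 0.209). Both genes were without overlap between the gates and had an unadjusted p under 0.05. Ephb2 stood at 9.92 and 10.5 FPKM in Lgr5-high against 7.07 and 6.50 in Lgr5-low, and its difference of 0.52 did not pass (limma adjusted p = 0.483), though it did with only the WT gates fitted (0.0451). Efnb1, the B-type ligand of the upper crypt, stood at 30.1 and 31.9 FPKM in Lgr5-high against 38.7 and 37.6 in Lgr5-low (difference of -0.29, limma adjusted p = 0.619).

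Ephb4 was the most abundant receptor in both WT gates, with 62.2 and 71.3 FPKM in Lgr5-high and 46.9 and 45.7 in Lgr5-low. It is best known from venous endothelium, where its partner is ephrin-B2, and the endothelial markers Cdh5, Kdr and Emcn were at or near 0 in the same libraries, although Esam, another marker of that list, reached 3.61 FPKM. The 8 endothelial markers together summed to 4.11 and 4.29 FPKM in WT Lgr5-high, to 1.31 and 1.43 in WT Lgr5-low and to 2.50 and 2.60 at day 6. Esam was higher in WT Lgr5-high than in WT Lgr5-low (1.26, limma adjusted p = 0.0214). At day 6 it was lower than in WT Lgr5-high (-0.97, 0.00930), and in knockout organoids it was higher than in WT (0.45, 0.0367). The part of endothelial RNA in the level of Ephb4 was not tested. Epha2, a receptor for ephrin-A1, stood at 11.9 and 17.5 FPKM in Lgr5-high and 14.5 and 19.7 in Lgr5-low, so that its groups overlapped. Efna1 overlapped too, with 35.4 and 37.8 FPKM against 51.1 and 17.1, and its Lgr5-low libraries differed by 2.99-fold between themselves. Ephb6, a receptor with an inactive kinase domain, stayed at or below 0.185 FPKM in all 20 libraries, was listed at 0 in 2 organoid libraries, and did not reach the 1 FPKM that a gene needed in 2 libraries to be tested.

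In all, 2 of the 9 members tested were called between the WT gates, both higher in Lgr5-high, against 1.2% of all 12899 genes tested (0.372% called higher). Among members, 7 of 9 had gates that did not overlap, against 64.4% of all genes, so that lack of overlap alone did not set the family apart. Leaving out any 1 of the 4 WT libraries ended both calls, with adjusted p between 0.122 and 0.346 for Ephb3 and between 0.206 and 0.417 for Efna4, while the differences stayed at 1.18 to 1.62 and at 1.02 to 1.35 on the log2 scale. Both calls also ended with all libraries scaled to equal FPKM sums (0.113 and 0.169), with no filter on low genes (0.0932 and 0.102) and with median-of-ratios scaling (0.0529 and 0.0740), and that of Efna4 with a pseudocount of 0.1 (0.0521). Because the libraries are bulk samples, fewer cells of a type and less RNA per cell cannot be told apart here or below.

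**Figure D1:**
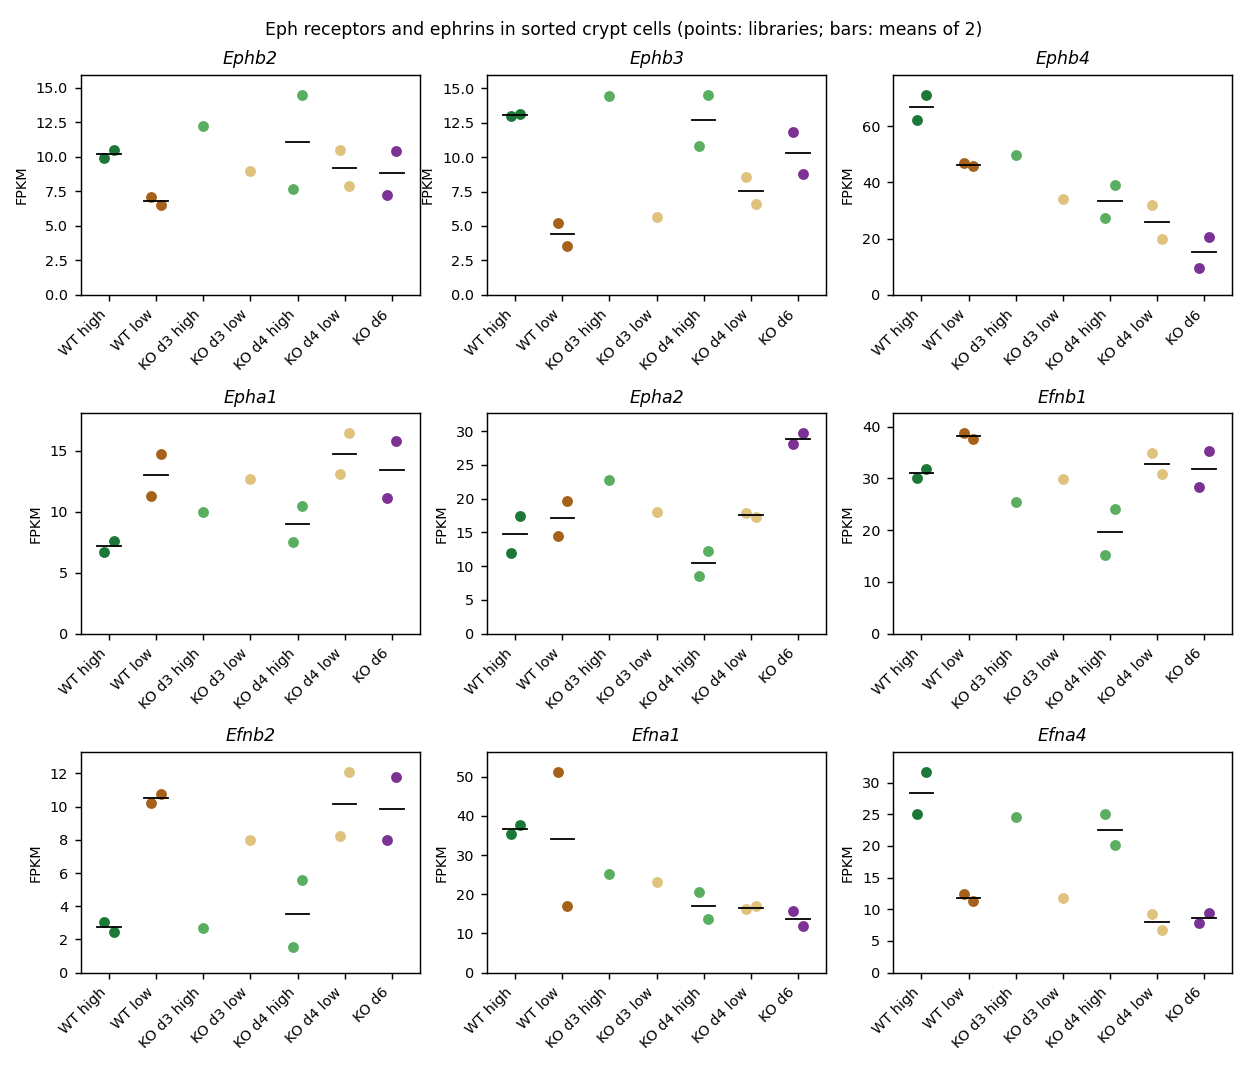
FPKM (vertical axis, from 0, a scale of its own for each gene) of the 9 members above 1 FPKM in the 12 tissue libraries by group (horizontal axis), with KO for cells labelled Mettl3-/-. Points are libraries and bars the mean of 2 libraries; Ephb3 and Efna4 sit higher in each Lgr5-high group than in the Lgr5-low group of the same day, Efnb2 and Epha1 lower, and Ephb4 has its lowest mean, 15.2, at day 6.

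Within the knockout at day 4, the gates were compared in the same way. Efna4 had 25.0 and 20.1 FPKM in Lgr5-high against 9.32 and 6.72 in Lgr5-low (difference of 1.39 ± 0.23, limma adjusted p = 0.0928). Efnb2 had 1.52 and 5.59 against 8.22 and 12.1 (difference of -1.43, limma adjusted p = 0.155), and its Lgr5-high libraries were 3.67-fold apart. Both genes were without overlap, and neither passed. Ephb3 had 10.8 and 14.5 FPKM against 8.54 and 6.60 (difference of 0.67, limma adjusted p = 0.205).

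The remaining members with an unadjusted p under 0.05 were all lower in Lgr5-high at day 4. Efnb1 stood at 15.3 and 24.1 FPKM in Lgr5-high against 34.9 and 30.8 in Lgr5-low (difference of -0.74, limma adjusted p = 0.171). Epha2 stood at 8.57 and 12.3 against 17.9 and 17.3 (difference of -0.72, limma adjusted p = 0.192). For Epha1 the values were 7.53 and 10.4 against 13.1 and 16.4 (difference of -0.66, limma adjusted p = 0.209). Ephb2 overlapped between the gates, with 7.65 and 14.5 against 10.5 and 7.87 FPKM (difference of 0.20, limma adjusted p = 0.734). That sign rested on day 4 Lgr5-high replicate 2, without which the difference was -0.22.

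None of the 9 members was called between the day 4 gates by limma, nor was any of all 12899 genes (0%), while 6 of the 9 and 18.7% of all genes had an unadjusted p under 0.05. These counts take no account of replicate number, by which Pla2g2a split both gates. With the replicate block, 1 member was called, Efna4 (limma adjusted p = 0.0272), and 276 of all genes. The gates did not overlap for 6 of 9 members, against 43.5% of all genes. Without day 4 Lgr5-high replicate 2, 3 members were called: Efnb1 (difference of -1.05, limma adjusted p = 0.0292), Efnb2 (-2.12, limma adjusted p = 0.0277) and Efna4 (1.54, limma adjusted p = 0.0277). The change of the gate difference from WT to day 4 was tested as an interaction. By limma it called 0 of 9 members against 0.0155% of all genes, with no member at an unadjusted p under 0.05 and 1.73% of all genes there. For Ephb3 the gate difference was 1.40 in WT and 0.67 at day 4, a change of -0.73 with a 95% interval from -1.53 to 0.06.

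**Figure D2:**
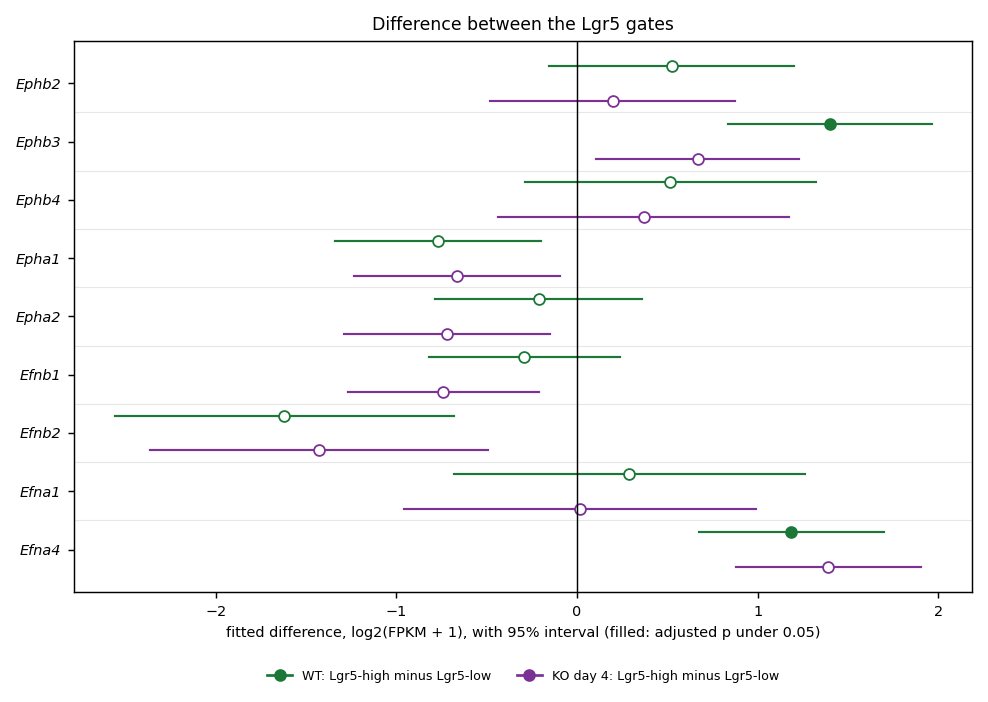
Fitted difference between Lgr5-high and Lgr5-low cells (horizontal axis, log2(FPKM + 1), positive where Lgr5-high is higher) for 9 members in WT and in the knockout at day 4. Lines are 95% intervals and filled points passed an adjusted p of 0.05; only Ephb3 (1.40) and Efna4 (1.19) in WT are filled, and Efnb2 lies lowest in both genotypes (-1.62 and -1.43).

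At day 3, where each gate had 1 library and no test could be made, the values were already below WT for Ephb4. This receptor stood at 49.6 FPKM in Lgr5-high against a WT mean of 66.8, and at 34.3 in Lgr5-low against a WT mean of 46.3. Both day 3 values lay under both WT libraries of their gate. Ephb2 was above both WT libraries in each gate (12.2 and 8.97 FPKM), as was Ephb3 (14.5 and 5.63). Efnb1 was below them in each gate (25.5 and 29.8 FPKM). Epha2 stood at 22.8 FPKM in Lgr5-high, above both WT libraries, and at 18.0 in Lgr5-low, between them. Over the 9 members of more than 1 FPKM, 8 lay outside the range of the WT libraries in Lgr5-high, 4 above and 4 below, against 73.5% of all genes, and 5 did so in Lgr5-low, 2 above and 3 below, against 72.4%. These shares do not set the family apart. A range of 2 libraries is narrow, and no spread could be set beside the day 3 values.

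The knockout was compared with WT at day 4 within each gate. In Lgr5-high cells, Ephb4 stood at 27.5 and 39.1 FPKM against 62.2 and 71.3 in WT, so that its mean was 2.005-fold lower and the groups did not overlap. The difference of -1.0 ± 0.35 did not pass (limma adjusted p = 0.203). Efnb1 stood at 15.3 and 24.1 FPKM against 30.1 and 31.9 (difference of -0.66, limma adjusted p = 0.199). Among the alternatives run it passed only without day 4 Lgr5-high replicate 2, the library of 24.1 FPKM (difference of -0.97, limma adjusted p = 0.0445). Efna1, a ligand of EphA2, stood at 20.5 and 13.7 FPKM against 35.4 and 37.8 (difference of -1.08, limma adjusted p = 0.245).

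Neither of the receptors at the centre of the crypt gradient separated the day 4 Lgr5-high groups. Ephb2 had 7.65 and 14.5 FPKM around WT values of 9.92 and 10.5 (difference of 0.05, limma adjusted p = 0.949). Ephb3 had 10.8 and 14.5 around 13.0 and 13.2 (difference of -0.06, limma adjusted p = 0.927). The sign of neither can be given, since Ephb2 turned to -0.37 without day 4 Lgr5-high replicate 2 and to -0.08 with equal FPKM sums, and Ephb3 to 0.14 without replicate 1 of that group. Alongside, summed goblet markers stood at 6109 and 6030 FPKM in day 4 Lgr5-high against 2153 and 1725 in WT, and 1 of the 6, Tff3, rose (1.77, limma adjusted p = 0.0497). Their part in the values of the family was not tested. By limma 0 of 9 members were called, against 1.05% of all genes, and 3 of 9 had an unadjusted p under 0.05, against 16.9%. The groups did not overlap for 4 of 9 members, all lower in the knockout, against 46.6% of all genes (21.6% lower).

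In Lgr5-low cells at day 4, Ephb3 stood at 8.54 and 6.60 FPKM against 5.20 and 3.58 in WT, without overlap (difference of 0.68 ± 0.25, limma adjusted p = 0.282). Ephb4 stood at 31.8 and 19.8 FPKM against 46.9 and 45.7 (difference of -0.85, limma adjusted p = 0.337). For Efna4 the values were 9.32 and 6.72 against 12.4 and 11.3 (difference of -0.52, limma adjusted p = 0.356). These are the 3 members with an unadjusted p under 0.05, and none passed. Ephb2 had 10.5 and 7.87 FPKM against 7.07 and 6.50 (difference of 0.38, limma adjusted p = 0.646), and Efnb1 had 34.9 and 30.8 against 38.7 and 37.6 (difference of -0.21, limma adjusted p = 0.761). By limma 0 of 9 members were called, against 0.473% of all genes, while 13.7% of all genes had an unadjusted p under 0.05, and 6 of 9 members were without overlap, against 53.5%.

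At day 6, where a header reads low for replicate 1 and nothing names the gate of replicate 2, the libraries were set beside both WT gates. Ephb4 fell, reaching 9.64 and 20.7 FPKM, below every other tissue library except day 4 Lgr5-low replicate 2 (19.8 FPKM), which lay between them. Against WT Lgr5-high its mean was 4.41-fold lower (difference of -2.15 ± 0.35, limma adjusted p = 0.00502), and against WT Lgr5-low 3.05-fold lower (-1.64, limma adjusted p = 0.0213). The call against WT Lgr5-high held when any 1 library was left out, with adjusted p from 0.00387 to 0.0469. Against WT Lgr5-low it ended without either WT library (adjusted p of 0.111 and 0.127) and without day 6 replicate 1 (0.125), the library of 9.64 FPKM, and with no filter on low genes (0.0679).

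Efna4 fell against WT Lgr5-high, from 25.1 and 31.6 FPKM to 7.84 and 9.47 at day 6, 3.28-fold in the means (-1.60 ± 0.23, limma adjusted p = 0.00277). This call also held without any 1 library, with adjusted p from 0.00941 to 0.0371. The day 6 values lay below the 12.4 and 11.3 FPKM of WT Lgr5-low as well, where no call was made. Efna1, the most abundant A-type ligand in WT, stood at 15.6 and 11.9 FPKM at day 6. It did not pass against WT Lgr5-high (-1.36, limma adjusted p = 0.0524) or WT Lgr5-low (-1.07, limma adjusted p = 0.149). Against WT Lgr5-high it passed in 3 of the 6 alternatives other than leaving out a library. These were equal FPKM sums (limma adjusted p = 0.0244), the replicate block and only the compared groups. Against WT Lgr5-low it passed in 0 of these 6, and its difference ranged from -1.83 to -0.30 over all alternatives and libraries left out.

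Efnb2 rose against WT Lgr5-high, from 3.03 and 2.46 FPKM to 7.97 and 11.8 (1.52 ± 0.41, limma adjusted p = 0.0320), and these values surround the 10.2 and 10.7 of WT Lgr5-low. Epha2 rose to 28.1 and 29.7 FPKM, above every other tissue library, and differed by 0.95 ± 0.25 from WT Lgr5-high (limma adjusted p = 0.0292). From WT Lgr5-low it differed by 0.74 (limma adjusted p = 0.0972). Epha1 rose to 11.2 and 15.8 FPKM from 6.71 and 7.65 in WT Lgr5-high (0.81 ± 0.25, limma adjusted p = 0.0494). All of these 3 rises ended when any 1 of the 4 libraries was left out, with adjusted p from 0.0635 to 0.215, with equal FPKM sums (0.125 to 0.418) and with no filter on low genes (0.0639 to 0.0949).

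Ephb3 stood at 11.8 and 8.80 FPKM at day 6, under the 13.0 and 13.2 of WT Lgr5-high and above the 5.20 and 3.58 of WT Lgr5-low. Against WT Lgr5-low it rose, 2.34-fold in the means (1.07 ± 0.25, limma adjusted p = 0.0276). The call ended without WT Lgr5-low replicate 1 (limma adjusted p = 0.0678), without WT Lgr5-low replicate 2 (0.215), without day 6 replicate 1 (0.171), with equal FPKM sums (0.231), with no filter (0.0624) and with the compared groups fitted alone (0.0572). Ephb2 had 7.21 and 10.4 FPKM and Efnb1 28.4 and 35.2, and neither had an unadjusted p under 0.05 against either WT gate.

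Between day 6 and WT Lgr5-high, 5 of 9 members were called, 3 higher and 2 lower, against 21.9% of all genes. Against WT Lgr5-low 2 of 9 were called, 1 in each direction, against 11.5%. Groups without overlap numbered 7 of 9 in both comparisons, against 69.2% and 58.9%. Over all genes the median difference from WT Lgr5-high was -0.16 on the log2 scale. Scaling to equal FPKM sums shifted the day 6 libraries against WT Lgr5-high by a log2 factor of -0.39, and median-of-ratios scaling by 0.20. These are shifts of whole libraries before the pseudocount, and the median difference after scaling is not given. Alongside, the 7 enterocyte markers summed to 3147 and 3163 FPKM at day 6, within the 1568 and 3161 of WT Lgr5-low or just above them, against 146 and 200 in WT Lgr5-high. Summed stem cell markers stood at 133 and 503 FPKM against 3222 and 3479 in WT Lgr5-high, and summed Paneth markers reached 107571. The 6 goblet markers summed to 9003 and 7356 FPKM against 2153 and 1725 in WT Lgr5-high and 5413 and 4838 in WT Lgr5-low, and 5 of them rose against WT Lgr5-high, 0 against WT Lgr5-low by limma, where 2 had an unadjusted p under 0.05. The part of these markers, and of the high FPKM sum of day 6 replicate 1, in the results for the family was not tested, and the gate of the day 6 libraries and the day cannot be told apart.

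Day 6 was also compared with day 4. Epha2 was higher than in day 4 Lgr5-high, where it had 8.57 and 12.3 FPKM (1.40 ± 0.25, limma adjusted p = 0.0291), and Efna4 was lower than its 25.0 and 20.1 FPKM there (-1.28 ± 0.23, limma adjusted p = 0.0289). These were 2 of 9 members, against 3.21% of all genes, with 6 of 9 without overlap against 45.4%. Both calls ended without day 4 Lgr5-high replicate 1, without either day 6 library, with equal FPKM sums, with no filter and with the compared groups fitted alone, with adjusted p from 0.0527 to 0.188. Without day 4 Lgr5-high replicate 2 the called members were 4, with Efnb1 (1.0, limma adjusted p = 0.0252) and Efnb2 (2.08, limma adjusted p = 0.0163) added. With all libraries, Efnb1 differed by 0.69 (limma adjusted p = 0.125), Efnb2 by 1.39 (0.0964) and Ephb4 by -1.15 (0.103). Against day 4 Lgr5-low limma called 0 of 9 members and 0.0543% of all genes. There 1 member had an unadjusted p under 0.05, Epha2 (0.68, limma adjusted p = 0.489), against 8.29% of all genes, and 3 of 9 members were without overlap, against 34.4%.

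**Figure D3:**
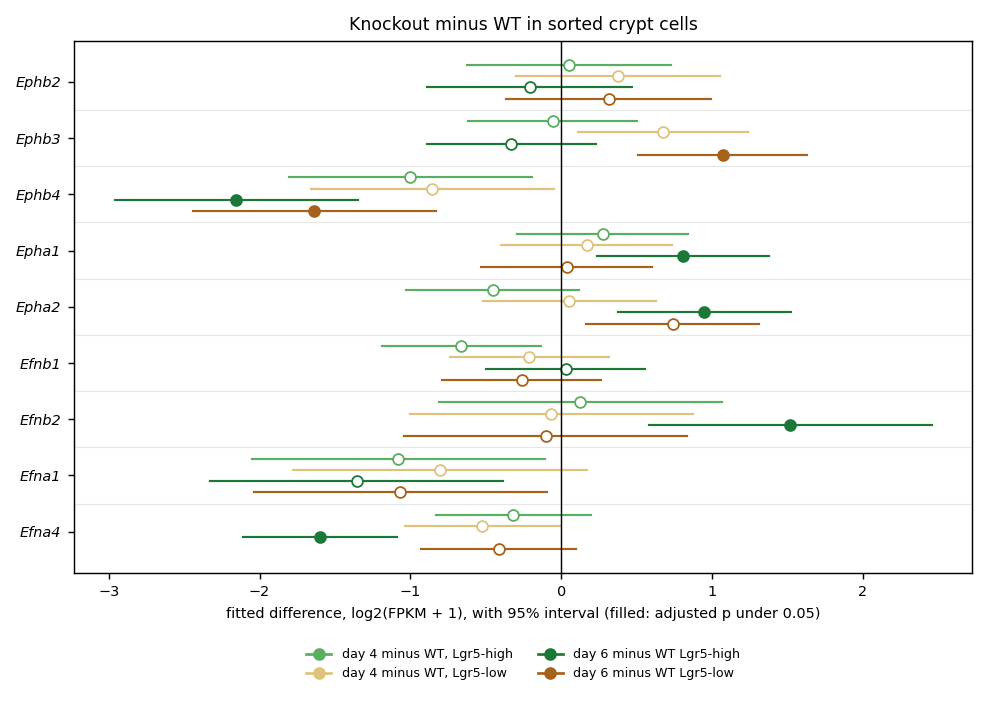
Fitted knockout minus WT difference (horizontal axis, log2(FPKM + 1)) for 9 members at day 4 in each gate and at day 6 against each WT gate. Lines are 95% intervals and filled points passed an adjusted p of 0.05; no day 4 point is filled, and at day 6 Ephb4 lies lowest, at -2.15 and -1.64.

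The balance of Ephb3 to Efnb2 was taken per library on the FPKM scale. In WT these genes had the opposed gate differences given above, so their ratio restates them and adds no support. The ratio was 4.29 and 5.34 in WT Lgr5-high against 0.508 and 0.333 in WT Lgr5-low, so that in WT Ephb3 exceeded Efnb2 only in the Lgr5-high libraries. Another pair read otherwise: Efnb1, the other B-type ligand, exceeded Ephb3 in every WT tissue library. At day 4 the ratio of Ephb3 to Efnb2 was 7.08 and 2.60 in Lgr5-high against 1.04 and 0.547 in Lgr5-low, and at day 6 it was 1.48 and 0.749. In organoids it was 0.437 and 0.411 in WT, 0.522 and 0.565 in the knockout, 0.472 and 0.638 with AKF and 1.12 and 0.945 with AKFP. The ratio of Ephb2 to Efnb1 was below 1 in all 20 libraries, from 0.173 in WT Lgr5-low to 0.613 with AKFP. These ratios carry no test of their own.

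In organoids, the knockout was compared with WT. Epha2 rose, from 23.0 and 24.0 FPKM to 46.3 and 49.8, 2.04-fold in the means (0.998 ± 0.08 on the log2 scale, limma adjusted p = 0.000551). Ephb4 fell, from 32.4 and 36.4 FPKM to 22.2 and 20.9, 1.59-fold in the means (-0.65 ± 0.10, limma adjusted p = 0.00550). Replicates of both genes lay close together and the groups were apart, and both calls held without any 1 library, with adjusted p up to 0.00717 for Epha2 and 0.0393 for Ephb4.

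The ligands called in organoids had smaller fitted differences. Efnb2 fell, from 16.8 and 19.7 FPKM to 12.5 and 13.4 (-0.46 ± 0.10, limma adjusted p = 0.0142). Efnb1 rose, from 32.1 and 31.7 FPKM to 40.4 and 38.6 (0.30 ± 0.08, limma adjusted p = 0.0355). Efna4 fell, from 20.1 and 19.3 FPKM to 16.7 and 16.4 (-0.24 ± 0.07, limma adjusted p = 0.0400). Leaving out any 1 library ended the calls of Efnb1 and Efna4, with adjusted p from 0.0983 to 0.158, and that of Efnb1 also ended with equal FPKM sums (0.120), median-of-ratios scaling (0.0599) and no filter (0.0664). The call of Efnb2 ended without WT replicate 2 (limma adjusted p = 0.0721) and without knockout replicate 1 (0.0794).

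Efna1, the most abundant member in WT organoids, stood at 100.4 and 88.6 FPKM there and at 63.7 and 24.3 in the knockout. Its knockout libraries differed by 2.62-fold, and the difference of -1.24 did not pass (limma adjusted p = 0.0501). Without knockout replicate 1, the library of 63.7 FPKM, it was -1.91 (limma adjusted p = 0.00361). Ephb2 stood at 13.9 and 15.3 FPKM against 11.2 and 12.02 in WT, without overlap (difference of 0.31, limma adjusted p = 0.0767), and Ephb3 at 6.54 and 7.56 against 7.34 and 8.09, with overlap (difference of -0.12, limma adjusted p = 0.512). Epha1 stayed between 13.8 and 16.0 FPKM in all 8 organoid libraries. With equal FPKM sums and with median-of-ratios scaling Efna1 passed (limma adjusted p = 0.0289 and 0.0496) while Efnb1 did not, so that 1 member was higher and 4 lower. As fitted, 5 of 9 members were called, 2 higher and 3 lower, against 28.2% of all 12657 genes tested, and 7 of 9 were without overlap, against 67.9%.

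**Figure D4:**
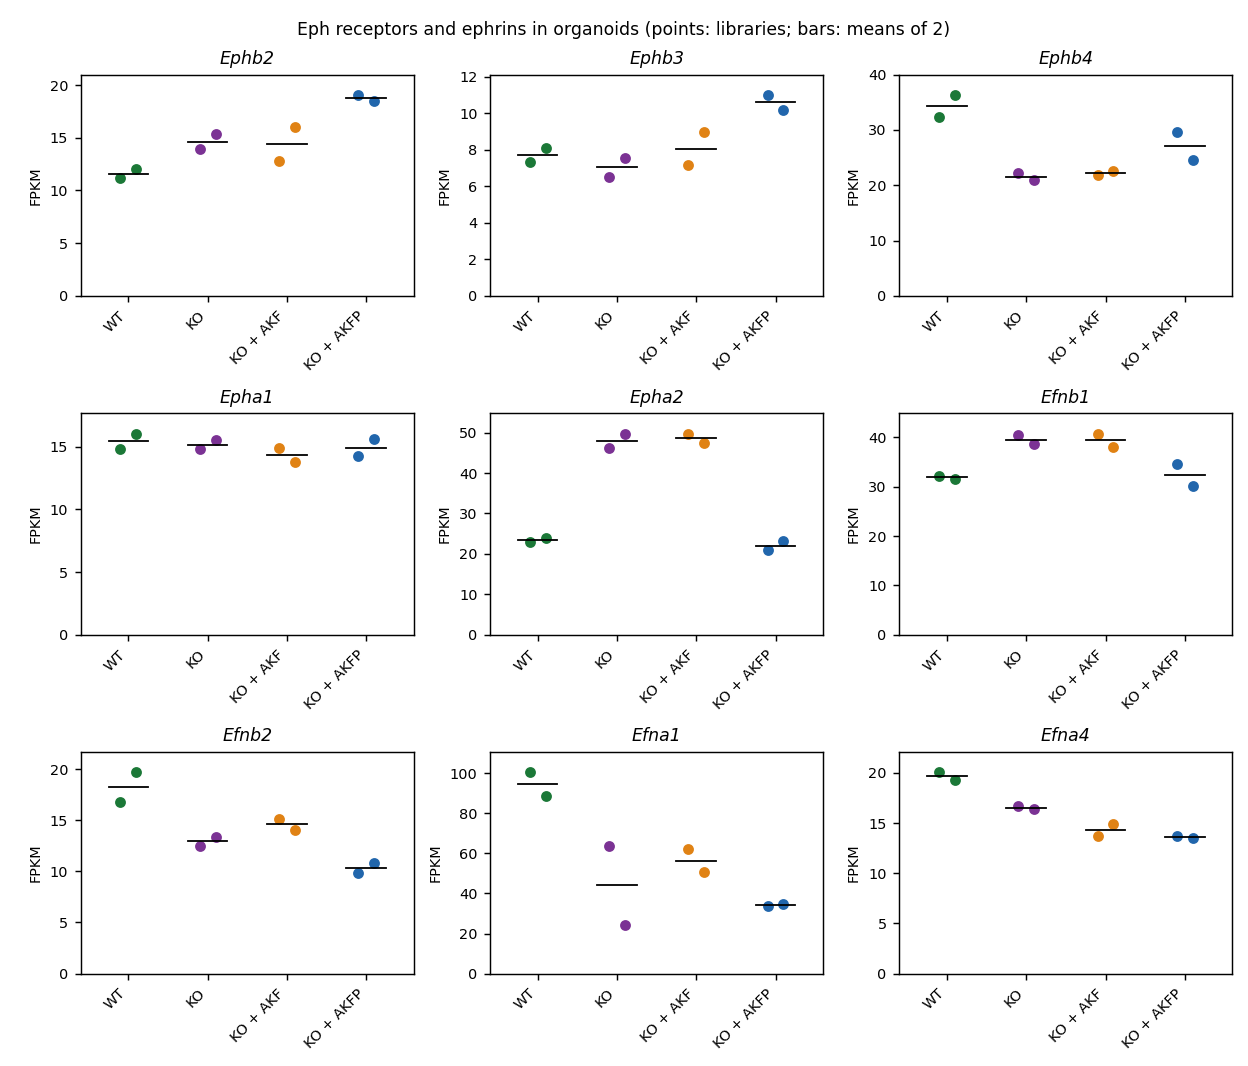
FPKM (vertical axis, from 0, a scale of its own for each gene) of the 9 members above 1 FPKM in the 8 organoid libraries by group (horizontal axis), with KO for organoids labelled Mettl3-/-. Points are libraries and bars their means; Epha2 is between 46.3 and 49.8 in the knockout and with AKF and between 20.8 and 24.0 in WT and with AKFP.

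AKF organoids, with the combination of Ascl2, Klf9 and Fosb, were compared with the knockout that has no added factor named. By limma 0 of 9 members were called, against 0.0474% of all genes. Efna4 alone had an unadjusted p under 0.05, against 4.6% of all genes, with 13.7 and 14.9 FPKM against 16.7 and 16.4 (difference of -0.20, limma adjusted p = 0.997), and 2 of 9 members were without overlap, against 29.6%. Epha2 stood at 49.7 and 47.5 FPKM with AKF, and its difference from the knockout of 0.02 had a 95% interval from -0.17 to 0.20. Ephb2 stood at 12.8 and 16.0 FPKM and Ephb3 at 7.16 and 8.98, and each overlapped the knockout.

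AKFP organoids, in which Purb is named beside the AKF factors, differed from the knockout in 4 of 9 members, 1 higher and 3 lower, against 26.4% of all genes, and 7 of 9 were without overlap, against 71.7%. The AKFP libraries were also those set apart by Pla2g2a (5.43 on the log2 scale against the knockout, limma adjusted p = 1.96e-06), and whether they share the line of the other organoids is not given in the labels. Epha2 fell to 20.8 and 23.3 FPKM, 2.18-fold in the means (-1.09 ± 0.08, limma adjusted p = 0.000488). This held without any 1 library, with adjusted p up to 0.00581. Ephb3 rose to 11.0 and 10.2 FPKM (0.53 ± 0.12, limma adjusted p = 0.0218). Its call held without knockout replicate 2 (limma adjusted p = 0.0473) and ended without any of the other libraries (0.0748 to 0.121) and with no filter (0.0578).

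The ligands that fell with AKFP were Efnb1, to 34.7 and 30.2 FPKM (-0.28 ± 0.08, limma adjusted p = 0.0477), and Efna4, to 13.7 and 13.5 FPKM (-0.26 ± 0.07, limma adjusted p = 0.0328). Without knockout replicate 1, knockout replicate 2 or AKFP replicate 2 both calls ended, and without AKFP replicate 1 only that of Efna4, with adjusted p from 0.0971 to 0.213. With equal FPKM sums they ended as well, at 0.189 and 0.233. Ephb2 stood at 19.1 and 18.5 FPKM, above both knockout libraries (0.34, limma adjusted p = 0.0600), Ephb4 at 29.7 and 24.5 (0.31, 0.0655), and Efnb2 at 9.83 and 10.8, below them (-0.31, 0.0558). None of these 3 passed as fitted. Under the 6 alternatives other than leaving out a library, Ephb2 passed in 4, Ephb4 in 1 and Efnb2 in 1. With equal FPKM sums Ephb2 (0.0391) and Ephb4 (0.0308) passed, which made 3 members higher and 1 lower.

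AKFP was also set against AKF and against WT, and these comparisons share the AKFP libraries with the one above. Against AKF, 4 of 9 members were called, against 25.6% of all genes, with 7 of 9 without overlap against 67.4%. Epha2 was lower (-1.11 ± 0.08, limma adjusted p = 0.000436), as were Efnb2 (-0.47, 0.0164) and Efnb1 (-0.28, 0.0498), and Ephb2 was higher (0.37, 0.0495). The call of Epha2 held without any 1 library, and each of the other 3 ended without AKF replicate 1 (adjusted p from 0.0777 to 0.189) and without AKFP replicate 2 (0.0553 to 0.221). Without AKFP replicate 1 those of Ephb2 (0.156) and Efnb2 (0.0767) ended, and without AKF replicate 2 that of Efnb1 (0.0652). Ephb3 (0.36, limma adjusted p = 0.0648) and Ephb4 (0.27, 0.0932) did not pass. With equal FPKM sums the split turned from 1 higher and 3 lower to 3 higher and 1 lower: Ephb3 (limma adjusted p = 0.0442) and Ephb4 (0.0412) passed, and Efnb1 (0.186) and Efnb2 (0.0569) did not.

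Against WT, 6 of 9 members were called, 2 higher and 4 lower, against 43.4% of all genes, with 6 of 9 without overlap against 74.3%. Ephb2 was higher, 1.62-fold in the means (0.65 ± 0.11, limma adjusted p = 0.00392), as was Ephb3 (0.41 ± 0.12, 0.0295). Efnb2 (-0.76, 0.00122), Efna4 (-0.50, 0.00169), Efna1 (-1.44, 0.0209) and Ephb4 (-0.34, 0.0374) were lower, with Efna1 at 33.5 and 34.5 FPKM. The calls of Ephb2, Efnb2 and Efna4 held without any 1 library, and those of Ephb3 and Efna1 ended without any 1, at 0.0585 to 0.139. That of Ephb4 ended without WT replicate 1, WT replicate 2 or AKFP replicate 2. Under the 6 alternatives other than leaving out a library, the call of Ephb4 held in only 2. Epha2, singled out after its values were seen, differed from WT by -0.09, with a 95% interval from -0.28 to 0.09.

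Alongside, summed stem cell markers stood at 685 and 777 FPKM in WT organoids, between 405 and 422 in the knockout, between 438 and 534 with AKF and between 755 and 758 with AKFP. Most of this sum was Olfm4, with 467 and 548 FPKM in WT and 504 and 509 with AKFP. The stem markers were split between AKFP and WT. Igfbp4 (-1.39, limma adjusted p = 0.00229), Smoc2 (-0.52, 0.00330) and Lgr5 (-0.38, 0.00847) were lower with AKFP. Ascl2, a gene of the retroviruses, was higher (0.70, 0.000639), as was the other marker called. Summed Paneth markers stood at 3892 and 5123 FPKM in WT, at 5400 and 6260 in the knockout, at 7012 and 7593 with AKF and at 8006 and 8897 with AKFP. Summed enterocyte markers stood at 2537 and 2698 FPKM in WT, at 1367 and 1408 in the knockout, at 1155 and 1943 with AKF and at 686 and 707 with AKFP. Summed goblet markers stood at 1423 and 1914 FPKM in WT, at 2796 and 3034 in the knockout, at 3314 and 3709 with AKF and at 2855 and 3077 with AKFP, and all 6 rose in the knockout against WT by limma. Their part in the results for the family was not tested.

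**Figure D5:**
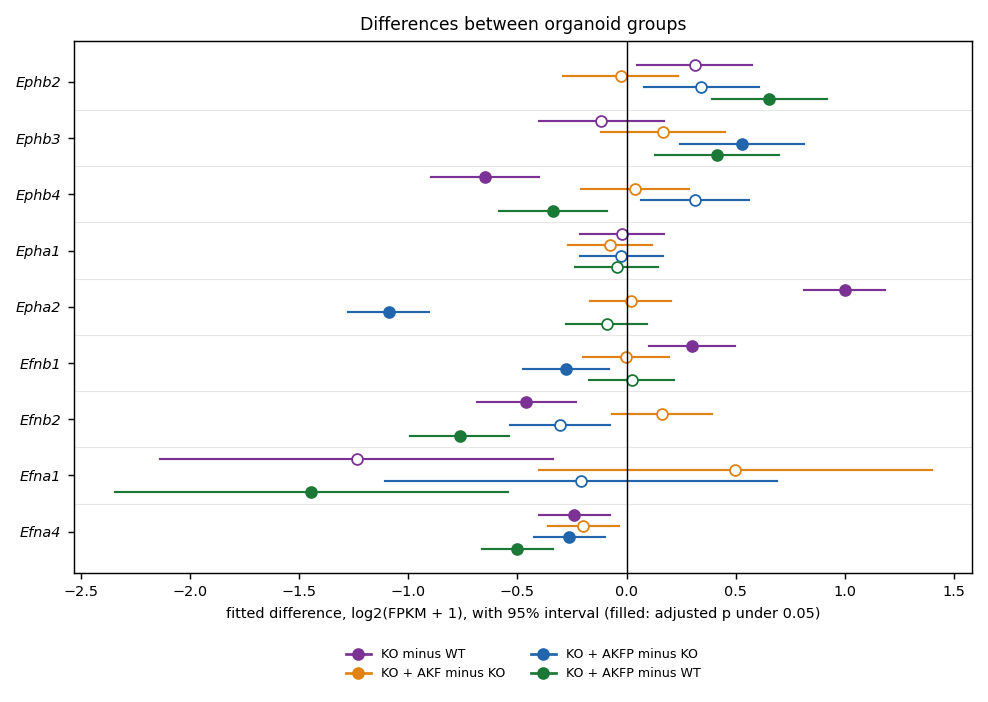
Fitted differences between organoid groups (horizontal axis, log2(FPKM + 1)) for 9 members: knockout minus WT, AKF and AKFP minus the knockout, and AKFP minus WT. Lines are 95% intervals and filled points passed an adjusted p of 0.05; Epha2 lies at 0.998 for the knockout against WT, at 0.02 for AKF and at -1.09 for AKFP against the knockout.

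Of 12 other family genes listed beside the members, 2 reached the filter in tissue and 3 in organoids. Efna3, another A-type ligand, fell at day 6 to 1.003 and 0.794 FPKM, from 7.23 and 7.63 in WT Lgr5-high (-2.15, limma adjusted p = 0.00112) and from 4.77 and 4.05 in WT Lgr5-low (-1.51, 0.00569). It was also lower than in day 4 Lgr5-high (-1.31, 0.0289). In knockout organoids Efna3 fell too, from 18.5 and 15.9 FPKM to 8.25 and 8.61 (-0.95, limma adjusted p = 0.00161), and with AKFP it stood at 7.08 and 6.04. Epha4, a receptor that binds both classes of ephrin, rose in knockout organoids from 0.614 and 0.644 FPKM to 1.198 and 1.19 (0.43, limma adjusted p = 0.0145) and with AKFP to 3.07 in both libraries (0.89 against the knockout, 0.00160). Efna2 rose in knockout organoids (0.84, limma adjusted p = 0.00848) and was lower with AKFP (-0.57 against the knockout, 0.0352), at levels of at most 2.21 FPKM. The other 9 genes of the list stayed below 1 FPKM in every library.

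Of 40 signalling partners of the family, 37 were tested in tissue and 36 in organoids. By limma, 0 of 37 were called between the WT gates or the day 4 gates, where 3 each had an unadjusted p under 0.05, or at day 4 in either gate, where 5 each had one. Between day 6 and WT Lgr5-high 2 rose and 4 fell, among them Ngef, an exchange factor that acts downstream of EphA receptors (-2.24, limma adjusted p = 0.000621), Vav3, another exchange factor (-1.18, 0.0140), Pik3r1, a regulatory subunit of PI 3-kinase (-2.07, 0.0161), and the adaptor Nck1, which rose (0.90, 0.0165). These 6 of 37 stand against 21.9% of all genes. Against WT Lgr5-low 3 rose and 1 fell (11.5% of all genes called), and between day 6 and day 4 Lgr5-high 1 rose and 1 fell (3.21%). In knockout organoids 6 of 36 rose and 6 fell against WT, while 28.2% of all genes were called, so that the counts in these comparisons do not set the list apart. Vav3 was among those that fell (-0.96, limma adjusted p = 0.00131), and Pard6b, a polarity protein (0.60, 0.00215), Nck1 (0.86, 0.00236) and the adaptor Dok1 (1.01, 0.00248) among those that rose. Against the knockout 16 of 36 were higher with AKFP and 2 lower, while 26.4% of all genes were called, with Acp1, a phosphatase that binds Eph receptors (0.68, limma adjusted p = 0.00212), and Wasl, an actin regulator (0.50, 0.00410), higher and Pard6b (-0.61, 0.00287) and Ngef (-0.59, 0.0114) lower. The median of the list was 0.33 there, against 0.04 for all genes tested. AKF called 0 of 36 by limma, with 0 at an unadjusted p under 0.05, while with AKFP 11 were higher and 2 lower against AKF (25.6% of all genes called) and 14 higher and 2 lower against WT (43.4%).

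Of 16 Wnt target genes of crypts, a list that leaves out the family itself, 14 were tested in tissue. Between the WT gates 5 were higher in Lgr5-high and none lower, while 1.2% of all genes were called. One of the 5 is Lgr5, on whose reporter the gates were sorted, so that its difference was fixed by the sort. The others were Cd44 (1.59, limma adjusted p = 0.0208), Ascl2 (2.07, 0.0233), Tnfrsf19 (2.33, 0.0233) and Tcf7 (1.32, 0.0395), in the direction of Ephb3. Limma called 0 of the 14 at day 4, with 5 in Lgr5-high and 2 in Lgr5-low at an unadjusted p under 0.05. At day 6, 8 of 14 fell against WT Lgr5-high (21.9% of all genes called), with Lgr5, on which that WT group was sorted, Ascl2 (-2.66, limma adjusted p = 0.00165), Axin2 (-2.60, 0.00262) and Rnf43 (-2.0, 0.00310), whereas for Ephb2 and Ephb3 no fall was called there. Against WT Lgr5-low 1 of 14 fell, Rnf43 (-1.22, limma adjusted p = 0.0302), and 1 rose, Cd44 (2.11, 0.00218), the direction of Ephb3 in that comparison, while 11.5% of all genes were called. The difference between these genes and Ephb2 or Ephb3 was not itself tested. In organoids 1 of 12 fell in the knockout (Lgr5, -0.63, limma adjusted p = 0.00214). With AKF 1 of 12 was higher than in the knockout, Ascl2, a gene its retroviruses carry. With AKFP 5 of 12 rose against the knockout (26.4% of all genes called), among them Ascl2 (0.61, limma adjusted p = 0.00299), again a gene of the retroviruses, Sox9 (0.65, 0.00676), Slc12a2 (0.70, 0.0107) and Cd44 (0.76, 0.0178). Against AKF, Ascl2 (-0.94, limma adjusted p = 0.000643) and Tnfrsf19 (-0.998, 0.00648) were lower, and the others called were higher (25.6% of all genes called). Against WT, Lgr5 was lower (-0.38, limma adjusted p = 0.00847), and the others called were higher (43.4% of all genes called).

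Across the 12 tissue libraries, which share the gates and the time points, members formed opposed patterns on the log2(FPKM + 1) scale. Efna4 and Efnb2 had a Pearson correlation of -0.90, Epha1 and Efnb2 of 0.90, Efna4 and Epha1 of -0.87, Efnb1 and Efnb2 of 0.71 and Ephb2 and Ephb3 of 0.69. Across the 8 organoid libraries Epha2 correlated with Efnb1 at 0.90 and with Ephb4 at -0.83, and Ephb2 with Efnb2 at -0.90. Among 6727 genes of at least 5 FPKM on average in tissue, those most like Ephb3 were Atxn10 (0.95), Sema7a (0.95), Igfbp4 (0.94), Cdc42ep1 (0.93) and Rhbdf1 (0.91). Those most like Ephb2 were Chtop (0.97), Spred1 (0.96), Heatr1 (0.96), Naa50 (0.95) and Pfas (0.95), and those most like Efnb1 were Ptk2b (0.98), Fblim1 (0.97), Cgn (0.95), Camsap3 (0.95) and Casz1 (0.95). The correlations are over libraries of few groups and are given as descriptions.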

How the data were processed

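RNA was measured in 20 libraries, 12 of sorted crypt cells and 8 of organoids. The deposited values are FPKM per gene, per the file headers of the tissue tables. The organoid table names no unit, and its values were taken as FPKM. The submitters' processing notes name HISAT2 2.1.0, StringTie 1.3.3b and build mm10 without saying what each was used for, and per the labels' protocols total RNA went into NEBNext Ultra RNA libraries. Read counts were not analysed here, so no count test was run. Gene symbols and positions were taken from GENCODE M21.

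FPKM were converted to log2(FPKM + 1). Genes at 1 FPKM or more in at least 2 libraries were fitted with limma 3.58.1 (lmFit, eBayes with trend; R 4.3.3), in 1 fit of 10 tissue libraries and 1 of 8 organoid libraries. Day 3, with 1 library per gate, stayed out of the fit. Tests were two-sided, p-values were adjusted by Benjamini-Hochberg over all 12899 or 12657 genes tested in each of 14 comparisons, and a call is an adjusted p under 0.05. Standard errors and 95% intervals come from the same fits. The fitting code was tested on simulated data. Alternatives were a pseudocount of 0.1, no filter, equal FPKM sums, median-of-ratios scaling, only the compared groups, a replicate block and leaving out each library.

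Members are named with their FPKM. Fits are printed for Ephb2, Ephb3 and Efnb1 in both gate comparisons, both day 4 comparisons and knockout against WT organoids, and elsewhere for members with an unadjusted p under 0.05. Chosen after their values were seen were the Epha2 intervals for AKF against the knockout and for AKFP against WT, and the Ephb3 interaction. The ratios of receptor to ligand were not planned in advance. Up to 4 called genes of smallest p are named per list (Lgr5 apart in the gates sorted on it), and 5 nearest genes each for Ephb2, Ephb3 and Efnb1. Pla2g2a and Olfm4 were singled out after their values were seen. The members and lists were chosen with earlier results of these data known. The lists hold 12 other family genes, 40 signalling partners, 16 Wnt targets and markers of stem, Paneth, enterocyte, goblet, endothelial, stromal, immune and epithelial cells.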

Additional observations from a re-analysis of the deposited data

Results flagged for a closer look

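The knockout minus WT differences at day 4 and in organoids were set beside each other for 9 members and both gates, and for 4 of these 18 pairs every knockout library lay on one side of the WT mean in tissue and on the other side in organoids. The share of all genes under this rule was not computed, so the count is not a result about the family. No test of these differences between tissue and organoids was made, since the sets were normalised and fitted separately. Epha2 differed by -0.45 in Lgr5-high cells, where knockout and WT libraries overlapped, and by 0.998 in organoids on the log2(FPKM + 1) scale, 1.45 apart. Efnb1 differed by -0.66 in Lgr5-high cells and by -0.21 in Lgr5-low cells, against 0.30 in organoids, which puts them 0.96 and 0.51 apart. For Ephb3 the difference was 0.68 in Lgr5-low cells and -0.12 in organoids, -0.79 apart. Its organoid groups overlapped, with 6.54 and 7.56 FPKM in the knockout against 7.34 and 8.09 in WT. Of the 4 tissue differences none was called, and in organoids those of Epha2 and Efnb1 were.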

How the results depend on the processing

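Over 14 comparisons, 67 differences of members were followed through the alternatives, of which 30 were called. Calls that held under all alternatives and without any 1 library were those of Ephb4 and Efna4 between day 6 and WT Lgr5-high, of Ephb4 and Epha2 between knockout and WT organoids, of Epha2 between AKFP and the knockout and between AKFP and AKF, and of Ephb2, Efnb2 and Efna4 between AKFP and WT organoids. The number of members called between the WT gates, 2 as fitted, was 1 with a pseudocount of 0.1, 0 with no filter, 0 with equal FPKM sums, 1 with median-of-ratios scaling (Efnb2, lower in Lgr5-high) and 4 with only the compared groups (3 higher and 1 lower), and 0 when any library was left out. At day 4 in Lgr5-high it was 0, and 0 to 1 with a library left out. Between the day 4 gates it was 0, 1 with the replicate block (Efna4, limma adjusted p = 0.0272, with 276 of all genes called) and 0 to 3 with a library left out. Between day 6 and WT Lgr5-high it was 5, 2 with no filter, 3 with equal FPKM sums and 2 without any library. Between day 6 and WT Lgr5-low it was 2, 0 with no filter, 1 with equal FPKM sums, 1 with only the compared groups and 0 to 2 with a library left out. Between day 6 and day 4 Lgr5-high it was 2, 0 with no filter, equal FPKM sums or only the compared groups, 4 with median-of-ratios scaling and 0 to 4 with a library left out. In organoids the 5 members called between knockout and WT became 3 with no filter and 2 to 3 with a library left out. For AKFP against the knockout the 4 became 2 and 1 to 3, against AKF the 4 became 2, also 2 with a pseudocount of 0.1, and 1 to 4, and against WT the 6 became 3 and 3 to 4. The sign of Ephb2 at day 4 in Lgr5-high turned to -0.0764 with equal FPKM sums and ranged from -0.37 to 0.47 with a library left out, that of Ephb3 there from -0.26 to 0.14, and that of Ephb2 between the day 4 gates from -0.22 to 0.62. With no filter more genes were tested, and with a library left out fewer samples were fitted; for the other alternatives the cause was not tested. The shift of the library scale is given as a log2 factor before the pseudocount. Equal FPKM sums shifted it by -0.39 and -0.29 at day 6 against WT Lgr5-high and Lgr5-low, and by -0.24 and -0.26 against day 4. The shift was -0.14 at day 4 in Lgr5-high and -0.11 in the gate change and in knockout organoids. It was 0.13 and 0.12 with AKFP against the knockout and AKF. Median-of-ratios scaling shifted the library scale by 0.20, 0.16 and 0.14 at day 6 against WT Lgr5-high and the day 4 gates, and by -0.11 between the WT gates. Libraries of the same replicate number did not deviate together throughout. The correlation of their deviations from the group means was over 0.1 in 7 of 10 pairs of tissue groups (0.024 to 0.520). It was over 0.1 in 0 of 6 pairs of organoid groups (-0.039 to 0.091). The numbers were thus not taken as pairs in the main fits. This correlation was however 0.34 between the day 4 gates and 0.44 between the WT gates, and Pla2g2a split the day 4 libraries by number in both gates. The main gate comparisons may thus leave out a pairing, which the labels do not give. With the replicate block the count changed by over 1.5 times in no comparison other than that between the day 4 gates. Between the WT gates it was 3 with the block (2 higher and 1 lower), with 432 of all genes called. Where a library was left out, the lone library of its group was assumed to vary like the other groups. Depth could only be inferred roughly from the smallest FPKM steps, and no interval was based on it.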

Other observations

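Summed over the 6 receptors of the set, FPKM stood at 103.8 and 120.03 in WT Lgr5-high and at 84.97 and 90.2 in WT Lgr5-low, and over its 4 ephrins at 93.6 and 103.7 and at 112.4 and 76.7. At day 6 the receptors summed to 68.0 and 85.3 and the ephrins to 59.9 and 68.4. In organoids the ephrins summed to 169 and 159 in WT, to 133 and 92.7 in the knockout, to 132 and 118 with AKF and to 91.8 and 89.0 with AKFP, and the receptors lay between 88.8 and 109.1 in all 8 libraries. Efna1 alone ran from 24.3 to 100.4 FPKM in organoids. The widest gaps between the libraries of 1 group were those of Efnb2 (3.67-fold, day 4 Lgr5-high) and Efna1 (2.99-fold, WT Lgr5-low). These sums carry no test.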
